A study of Mus musculus with 12 samples.

Results

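The 39 genes described here are interferon-stimulated genes of mouse liver, chosen by symbol from the deposited table of 18560 genes. The choice used gene names and no threshold on measured values, but it was made with earlier results of these data known. All 39 were in the table and all 39 reached 1 FPKM (fragments normalised to transcript length and library size) in at least 3 of the 12 libraries, the minimum for testing that 11514 genes passed. The libraries came from whole liver of mice aged 12 months, with 3 in each of 4 groups: wild-type (WT) males, OXR1A-/- males, WT females and OXR1A-/- females. The study asked how loss of OXR1A, a form of the oxidation resistance gene Oxr1, alters the liver transcriptome. OXR1A-/- mice are called knockout below. No further allele, diet or agent is named in the labels for any group, and neither the strain nor the construction of the allele is described in them. Separate animals are not stated for the 3 samples of a group, so each p-value reflects only the spread between samples, part of which may be technical.

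Interferons are secreted proteins that warn cells of viruses and other intracellular pathogens. Type I and type III interferons signal through JAK kinases to a complex containing STAT2 and IRF9 that binds the interferon-stimulated response element (ISRE), while interferon gamma acts mainly through the gamma-activated sequence (GAS). In liver, hepatocytes, Kupffer cells (the resident macrophages) and sinusoidal endothelium all respond, and the induced proteins block viral RNA and proteins, attack the vacuoles of pathogens and recruit lymphocytes.

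Promoter sequences of 4 members are shown because these are the genes, among the 10 with the smallest p in the male knockout comparison, whose promoter holds an ISRE match. Igtp is added for its level in 1 library and was chosen after its values were seen. Each run is 300 bases in RefSeq's GRCm38.p6 build, 250 before the transcript start and 50 from it onward, printed 5′ to 3′ on the gene's strand with ISRE matches in capitals.
Rsad2 promoter, chr12:26456403-26456702, minus strand: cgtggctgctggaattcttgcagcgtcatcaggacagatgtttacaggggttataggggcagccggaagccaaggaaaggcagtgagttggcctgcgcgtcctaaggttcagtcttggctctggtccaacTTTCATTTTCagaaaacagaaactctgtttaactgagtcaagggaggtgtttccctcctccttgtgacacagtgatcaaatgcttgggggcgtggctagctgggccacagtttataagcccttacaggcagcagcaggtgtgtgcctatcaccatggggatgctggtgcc
Ifit1 promoter, chr19:34640639-34640938, plus strand: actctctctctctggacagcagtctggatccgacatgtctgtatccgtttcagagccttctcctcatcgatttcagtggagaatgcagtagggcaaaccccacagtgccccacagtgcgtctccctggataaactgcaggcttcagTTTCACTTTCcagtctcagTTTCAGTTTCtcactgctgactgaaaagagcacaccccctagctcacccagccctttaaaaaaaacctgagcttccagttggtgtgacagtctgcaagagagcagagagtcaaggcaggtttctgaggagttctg
Ifit3 promoter, chr19:34583279-34583578, plus strand: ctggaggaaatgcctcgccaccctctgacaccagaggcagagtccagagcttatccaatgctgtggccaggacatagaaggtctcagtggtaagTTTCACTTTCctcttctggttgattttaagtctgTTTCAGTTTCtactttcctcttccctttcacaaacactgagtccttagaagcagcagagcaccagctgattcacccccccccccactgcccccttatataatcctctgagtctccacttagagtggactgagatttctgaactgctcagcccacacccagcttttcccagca
Cxcl10 promoter, chr5:92348840-92349139, minus strand: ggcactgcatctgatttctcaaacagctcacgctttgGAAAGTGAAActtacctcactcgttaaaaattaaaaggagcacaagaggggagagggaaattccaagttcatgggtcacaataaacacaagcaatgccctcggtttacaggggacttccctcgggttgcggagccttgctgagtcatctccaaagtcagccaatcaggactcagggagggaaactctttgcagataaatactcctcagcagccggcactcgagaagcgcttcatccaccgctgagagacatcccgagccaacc
Igtp promoter, chr11:58199306-58199605, plus strand: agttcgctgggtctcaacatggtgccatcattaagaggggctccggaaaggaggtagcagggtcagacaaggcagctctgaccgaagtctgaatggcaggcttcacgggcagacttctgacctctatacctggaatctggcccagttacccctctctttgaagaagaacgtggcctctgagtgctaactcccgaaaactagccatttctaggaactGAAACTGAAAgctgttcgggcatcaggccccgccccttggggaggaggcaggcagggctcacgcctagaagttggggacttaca

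The ISRE was searched on both strands as GAAA, any 2 bases and GAAA again, and GAS as TTC, any 3 bases and GAA, which reads the same on both strands. The first base of the match lay 104 and 85 bases before the start in Ifit1, 156 and 122 in Ifit3, 120 in Rsad2, 213 in Cxcl10 and 34 in Igtp. Igtp also held a GAS match 45 bases before the start. RefSeq's promoter table matched 29 of the 39 members, with 33 promoters, and 18 of these 33 held an ISRE match, against 3.44% of all 32851 promoters in the table. GAS matches were in 8 of the 33, against 8.30% of all promoters, and 5 members held both motifs. The 2 motifs overlapped in 1 promoter, that of Bst2. A match describes letters in this window and is not a measured binding site.

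Before the results, 1 library has to be named. Knockout male 2 held the highest value of the 12 libraries for 34 of the 39 members, against 22.2% of all tested genes. The exceptions were Oas1b, Oas1g, Oas2, Trim25 and Mx2. The member score, the mean log2(FPKM + 1) over the 39 genes, was 2.72, 4.33 and 2.63 in knockout males 1, 2 and 3. It was 2.22, 2.25 and 2.34 in WT males, 3.24, 3.01 and 3.10 in WT females and 3.10, 2.79 and 3.47 in knockout females. Most counts, medians and ratios on knockout males are therefore given with and without knockout male 2. Values after median-ratio scaling of the libraries use all 12. The heatmap of all members shows the same library as the darkest column.

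**Figure D1:**
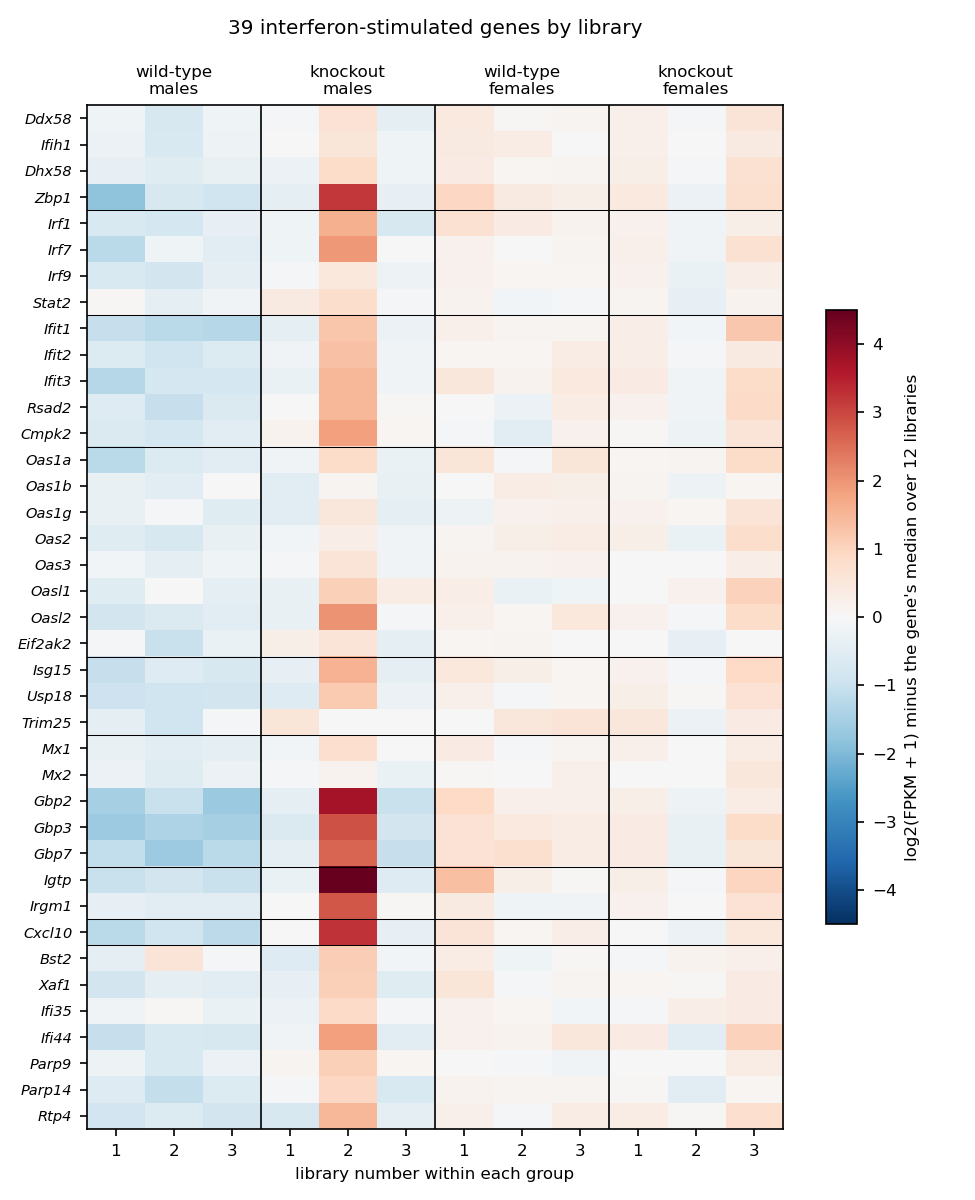
Level of each of the 39 members (rows, grouped by role) in each of the 12 libraries (columns, 3 per group), as log2(FPKM + 1) minus the gene's median over the 12 libraries. Knockout male 2 is the highest library for 34 of 39 members, and WT males are mostly below the median.

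The targeted gene could not check the labels. Oxr1 stood at 17.9 ± 5.61 FPKM in WT males and 23.4 ± 1.48 in knockout males, and at 18.5 ± 1.85 in WT females and 20.2 ± 0.642 in knockout females (SD, n = 3 each). The table has 1 value per gene over all isoforms, so these values do not show whether the OXR1A form was lost. The sex markers Xist and Ddx3y fitted the labelled sex in 12 of 12 libraries. The read totals are not stated. The FPKM of a library summed to between 526203 and 667434, and steps in the low values put the depth at an estimated 20300000 to 30400000 fragments, an estimate that assumes GENCODE transcript lengths. On this scale the fewest fragments behind any member's value were about 12.5, for Oas1a in WT male 1. WT male 2 stood apart from the other libraries in that FPKM fell with transcript length (log2 slope -0.20, against -0.09 to 0.11 elsewhere).

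The WT livers showed lower interferon-stimulated gene levels in males than in females. For 34 of the 39 members all 3 WT males lay below all 3 WT females, against 34.1% of all tested genes, and for 0 they lay above, against 6.04%. The 5 members with overlap were Stat2, Oas1g, Oasl1, Bst2 and Ifi35. Mean FPKM in WT females ranged from 0.994 to 5.65 times that in WT males, with a median of 2.09, and 21 members exceeded 2 times. The guanylate-binding proteins stood at the top, with Gbp3 at 5.65, Gbp7 at 5.30 and Gbp2 at 4.93 times. The median log2 difference, males minus females, was -0.78 over the members and -0.21 over all tested genes. After scaling that brought the median of all genes to -0.01, the members' median was -0.61.

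Of the 39 members, 4 were called lower in WT males than in WT females by limma (adjusted p under 0.05 over all 11514 genes), against 11.1% of all tested genes, and 0 were called higher, against 2.31%. The called members were Irf9, Oas1a, Ifit1 and Oas2. At an unadjusted p under 0.05 the count was 22 lower, against 27.7% of all tested genes. The count of calls depended on which libraries set the spread. A fit of the 6 WT libraries alone called 22 of the 36 members it tested, against 10.8% of its genes. A fit without knockout male 2 called 25 of 39, against 15.5%. Ifit2 and Ifi44, counted in both, had no WT male above 0.85 FPKM. In the first fit they passed the minimum through WT females alone. Mx1 and Oas3, counted in the second, had no WT male above 0.42 and 0.66 FPKM. With median-ratio scaling 0 members were called (smallest adjusted p 0.0616 by limma, with 4.63% of all genes higher and 4.45% lower in males).

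Irf9 encodes the DNA-binding subunit of the complex that recognises the ISRE. Its FPKM were 10.67, 9.42 and 12.57 in WT males and 20.20, 18.64 and 18.80 in WT females. The male and female values did not overlap, and Irf9 was lower in males (log2 -0.77, SE 0.20, limma adjusted p = 0.0256).

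Ifit1 encodes a protein that binds viral RNA lacking host cap methylation and blocks its translation. It read 1.87, 1.58 and 1.46 FPKM in WT males and 5.94, 5.53 and 5.45 in WT females. Every WT female exceeded every WT male, with a log2 difference of -1.33 (SE 0.40, limma adjusted p = 0.0490). Ifit3, of the same family, read 3.59, 5.40 and 5.41 in WT males and 15.07, 11.45 and 14.14 in WT females. The groups did not overlap, and the difference did not pass the threshold (log2 -1.34, SE 0.41, limma adjusted p = 0.0512).

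Oas1a and Oas2 encode oligoadenylate synthetases, which sense double-stranded RNA and activate RNase L. Oas1a stood at 0.28, 0.93 and 1.13 FPKM in WT males and 3.35, 1.74 and 3.31 in WT females (log2 -1.10, SE 0.33, limma adjusted p = 0.0467). Oas2 stood at 0.93, 0.72 and 1.22 in WT males and 2.08, 2.36 and 2.60 in WT females (log2 -0.78, SE 0.24, limma adjusted p = 0.0495). Neither gene's groups overlapped. Oas1a, Oas1b and Oas1g are related genes, and how reads were divided among them is uncertain. Among the 6 members with the smallest p, Ifih1, the RNA sensor MDA5, did not pass the threshold (log2 -0.65, SE 0.21, limma adjusted p = 0.0592). The plot of the sex difference shows all members in order.

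**Figure D2:**
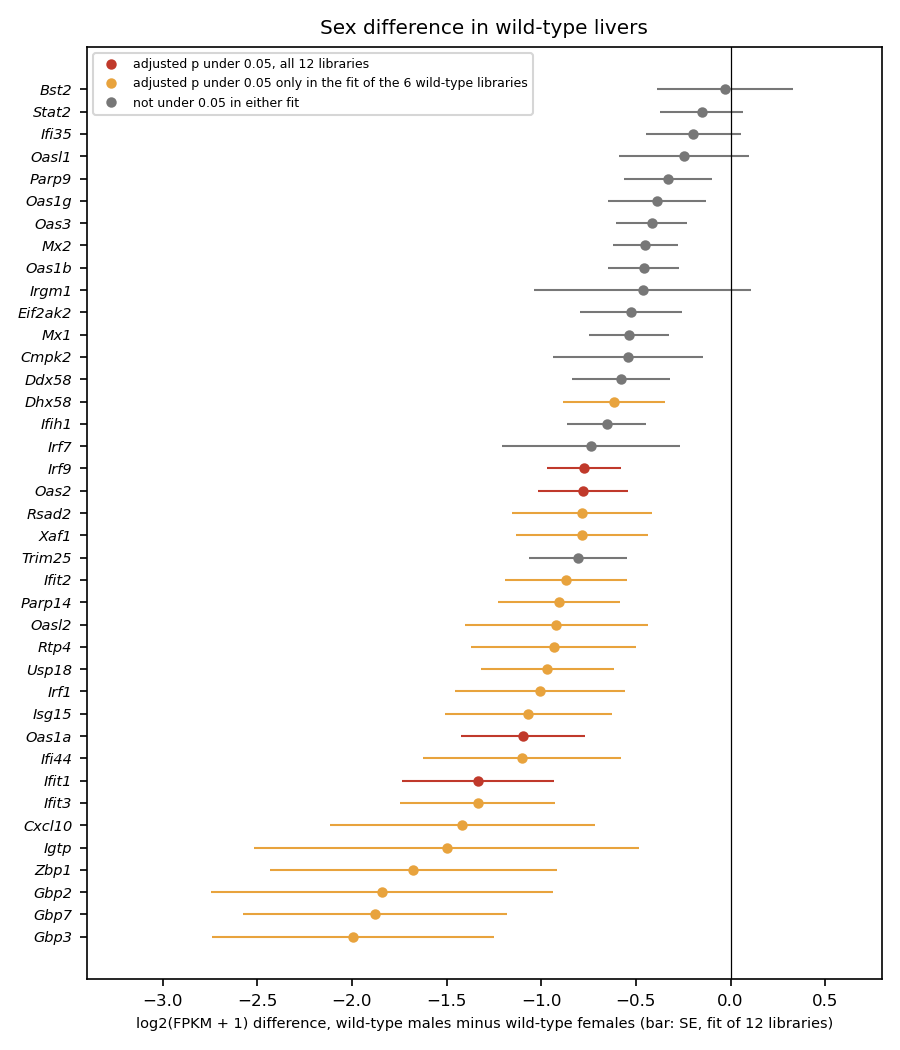
Difference in log2(FPKM + 1), WT males minus WT females, for each member (points) with its standard error from the fit of all 12 libraries (bars). Gbp3, Gbp7 and Gbp2 lie farthest below 0, and red points mark Irf9, Oas1a, Ifit1 and Oas2, called in the 12-library fit.

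The calls depended on which libraries were included, and the number called over all genes changed as well. With all libraries 1273 of 11514 tested genes were called lower in WT males. Leaving out WT female 1, 2 or 3 or WT male 1 or 2 left 0 of 39 members called. In those fits 507 of 11454 to 1077 of 11472 tested genes were called lower. Leaving out WT male 3 left 2 members (Trim25 and Irf9), against 875 of 11484 genes. Leaving out knockout female 1 left 1 (Irf9), against 1015 of 11464. All 39 log2 differences were negative in the 12-library fit, where 75.7% of all tested genes were, and 36 were negative under median-ratio scaling, with Bst2, Stat2 and Ifi35 positive. For Bst2 the mean FPKM was 0.994 times as high in WT females as in WT males, so its log2 difference and its ratio of means pointed in different directions.

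Markers of other liver cells differed between the sexes in the same comparison. Of all tested genes 11.1% were called lower in WT males and 2.31% higher. Of the 17 tested markers of Kupffer cells and macrophages, 8 were called lower in WT males, among them Vsig4 (log2 -1.42, SE 0.19, limma adjusted p = 0.000852) and Cd5l (log2 -1.52, SE 0.26, limma adjusted p = 0.00384). Their summed FPKM ranged from 215 to 398 in WT males and from 525 to 800 in WT females. Of the 14 sinusoidal endothelial markers 12 were called lower in WT males, with sums of 118 to 137 in WT males and 224 to 256 in WT females. Stellate cell markers had 4 of 12 called lower in WT males, neutrophil markers 2 of 4 and dendritic cell markers 0 of 4, and of 10 lymphocyte markers 1 was called lower and 1 higher. Cholangiocyte markers had 0 of 4 called. No hepatocyte marker was called (0 of 10), and their score was 11.4 to 11.6 in WT males and 11.4 to 11.5 in WT females. In bulk tissue fewer cells of a type and less RNA per cell cannot be told apart, and the part of these markers in the sex difference of the members was not tested.

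In males, knockout livers had higher member levels than WT livers in most genes, but 0 of 39 passed the adjusted threshold. For 24 members all 3 knockout males lay above all 3 WT males, against 21.2% of all tested genes, and for 0 they lay below, against 2.49%. The genes called higher made up 2.13% of all tested genes and those called lower 0.426%; with median-ratio scaling these shares were 0.62% and 0.699%. At an unadjusted p under 0.05 the count was 25 members, all higher, against 21.7% of all tested genes. The smallest adjusted p among members was 0.0709 (limma), for Irf9. The median log2 difference was 0.83 over the members and 0.19 over all tested genes, and 0.64 against 0.01 after median-ratio scaling.

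Without knockout male 2 the members' median was 0.46, against 0.15 over all genes, and again 0 were called, against 0.49% of all tested genes higher and 0.201% lower (smallest limma adjusted p 0.109, for Cxcl10). At an unadjusted p under 0.05 the count was then 13 members, all higher, against 15.3% of all tested genes in either direction. Knockout males 1 and 3 alone lay above all WT males for the same 24 members, against 23.3% of all tested genes. The ratio of mean FPKM, knockout over WT, ranged from 1.04 to 18.5 with all libraries (median 2.52) and from 0.741 to 2.66 without knockout male 2 (median 1.43). All 39 log2 differences were positive in the 12-library fit, as were 78.8% over all tested genes. Bst2 and Oas1b turned negative under median-ratio scaling, and Bst2, Ifi35, Oas1b and Oas1g without knockout male 2. Without knockout male 3, 5 members were called higher (Irf9, Parp9, Parp14, Cxcl10 and Cmpk2), against 4.38% of all tested genes.

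**Figure D3:**
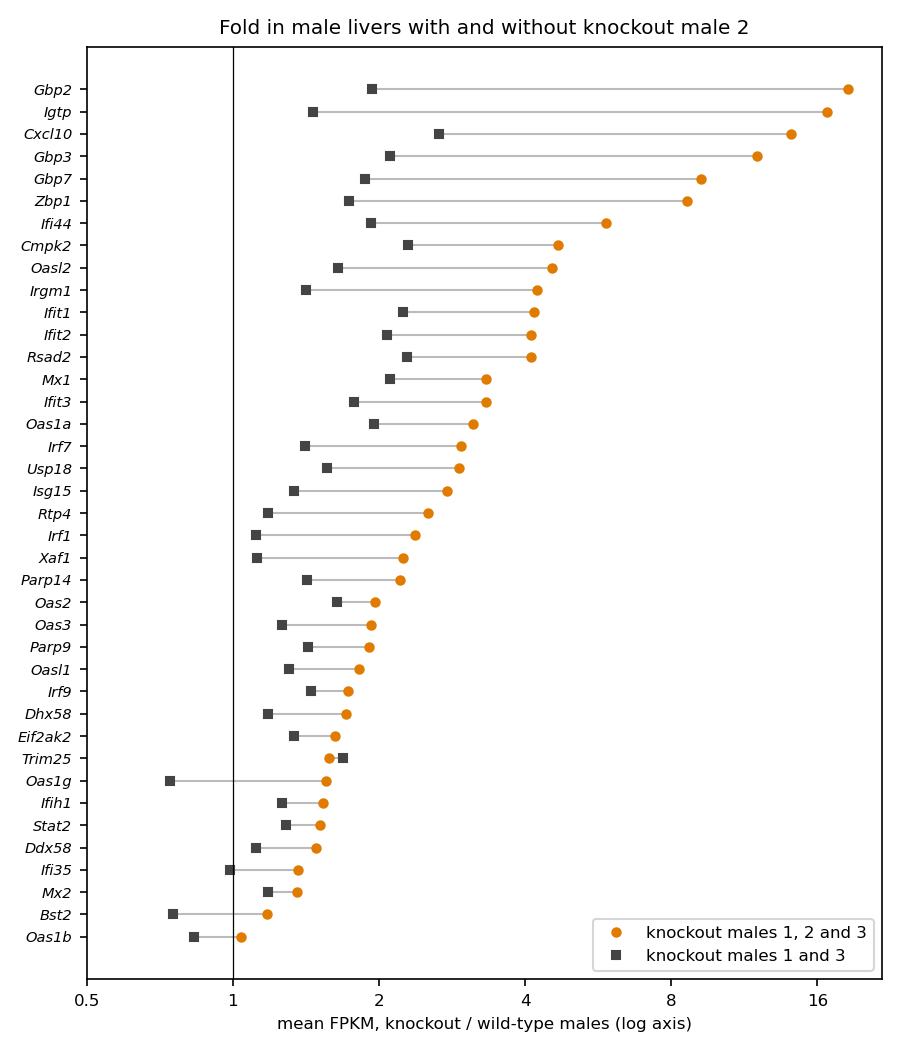
Ratio of mean FPKM, knockout over WT males (log axis), for each member with all 3 knockout males and without knockout male 2. With all libraries the ratios run from 1.04 to 18.5, and without knockout male 2 from 0.741 to 2.66.

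Of the 4 transcription factors, Irf9 had the smallest p of all members. It read 16.61, 24.89 and 14.95 FPKM in knockout males, against 10.67, 9.42 and 12.57 in WT males. Knockout males did not overlap WT males (log2 0.71, SE 0.20, limma adjusted p = 0.0709), and without knockout male 2 the ratio of means was 1.45. Stat2, its partner, had a ratio of means of 1.51, or 1.28 without knockout male 2, with overlapping groups. Irf7, which drives type I interferon production, had 2.95 and Irf1, a factor induced by interferon gamma, 2.38, and without knockout male 2 these were 1.41 and 1.12.

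In the group of IFIT proteins, viperin and Cmpk2, all 5 members had knockout males above WT males without overlap, against 21.2% of all tested genes. Rsad2, which encodes viperin, an enzyme that makes a chain-terminating nucleotide, read 2.62, 9.21 and 2.82 FPKM in knockout males and 1.43, 0.80 and 1.34 in WT males. Its difference was log2 1.26 (SE 0.37, limma adjusted p = 0.0827). Its chromosomal neighbour Cmpk2, a mitochondrial nucleotide kinase, read 2.88, 11.38 and 2.66 against 1.19, 0.99 and 1.44 (log2 1.35, SE 0.40, limma adjusted p = 0.0827). In both genes knockout male 2 was the highest and the other 2 knockout males were close to each other and above all WT males.

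Ifit1 read 3.41, 13.14 and 3.92 FPKM in knockout males, against 1.87, 1.58 and 1.46 in WT males (log2 1.36, SE 0.40, limma adjusted p = 0.0851). Ifit2 read 1.54, 6.0 and 1.51, against 0.82, 0.53 and 0.85 (log2 1.04, SE 0.32, limma adjusted p = 0.0962). Ifit3 read 8.01, 30.88 and 9.01, against 3.59, 5.40 and 5.41. The ratios of means for Ifit1, Ifit2 and Ifit3 were 4.17, 4.11 and 3.33, and without knockout male 2 they were 2.24, 2.08 and 1.77. All 3 genes are neighbours on chromosome 19.

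Further members among the 10 with the smallest p came from other roles. Parp9, which acts in ADP-ribosylation, read 20.66, 41.09 and 20.54 FPKM in knockout males and 16.10, 11.50 and 15.59 in WT males (log2 0.82, SE 0.23, limma adjusted p = 0.0770). Mx1, a dynamin-like antiviral GTPase, read 0.65, 2.0 and 0.81, against 0.42, 0.29 and 0.33. Usp18, which removes ISG15 from proteins and dampens the type I receptor, read 2.85, 12.07 and 3.81, against 2.01, 2.12 and 2.27. In these 3 genes every knockout male lay above every WT male, as in 21.2% of all tested genes. Among the OAS enzymes and PKR (Eif2ak2, which halts translation), 3 of 8 had no overlap, against 21.2% of all tested genes. These were Oas1a, Oas2 and Oasl2. Oas1a stood at 1.62, 4.28 and 1.42 in knockout males and Oas2 at 1.59, 2.51 and 1.54, so that Oas2 in knockout male 2 stayed below its level in knockout female 3, at 3.89.

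The distance of knockout male 2 from the other libraries varied between members. Its FPKM exceeded 2 times that of the highest other library for 11 of 39 members, against 1.23% of all tested genes. These were Zbp1, Irf7, Ifit2, Cmpk2, Oasl2, Gbp2, Gbp3, Gbp7, Igtp, Irgm1 and Cxcl10. The following genes were chosen after their values were seen. Igtp, an immunity-related GTPase that acts on pathogen vacuoles, read 17.55, 515.82 and 14.32 FPKM in knockout males, against 10.33, 11.86 and 10.44 in WT males. Gbp2, a guanylate-binding protein, read 4.74, 101.27 and 2.83, against 1.69, 2.77 and 1.42. In both genes knockout males 1 and 3 exceeded every WT male by far less than knockout male 2 did.

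Cxcl10, the chemokine that draws T and NK cells through CXCR3, read 3.57, 42.26 and 2.51 FPKM in knockout males and 0.98, 1.45 and 1.0 in WT males. Against the highest other library, knockout male 2 stood 9.07 times higher for Igtp, 7.74 for Gbp2, 7.27 for Cxcl10, 4.93 for Zbp1, a sensor of Z-form nucleic acids, and 4.49 for Irgm1. For Ifit1 the ratio was 1.03, since knockout female 3 read 12.77. The plot of the 2 highest knockout libraries sets these members against each other.

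**Figure D4:**
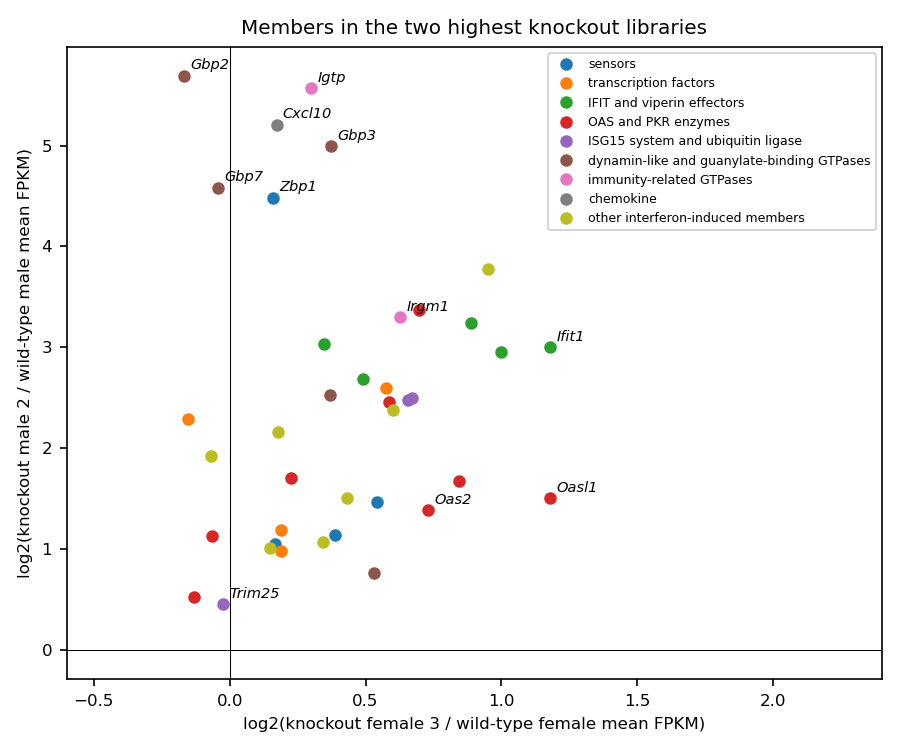
Each point is a member, placed by the log2 ratio of knockout female 3 to the WT female mean (x axis) and of knockout male 2 to the WT male mean (y axis). Gbp2, Igtp and Cxcl10 lie highest on the y axis, at 51.7, 47.4 and 37.0 times the WT male mean.

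Genes of the pathway around the members were read in the same libraries. Of all tested genes 2.13% were called higher in knockout males. Of 22 interferon genes 3 were in the table and 0 passed the minimum for testing. Ifng, encoding interferon gamma, read 1.07 FPKM in knockout male 2, was listed at 0 in the other 5 male libraries and was at most 0.12 in females. Of 15 tested receptor and JAK-STAT genes 1 was called higher in knockout males, Ifngr2, a subunit of the interferon gamma receptor (log2 0.71, SE 0.16, limma adjusted p = 0.0422). Its mean was 6.99 ± 1.15 FPKM in WT males and 12.2 ± 2.52 in knockout males (SD, n = 3).

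Of 20 tested nucleic acid sensing genes 1 was called higher in knockout males, the adaptor Myd88 (log2 0.50, SE 0.12, limma adjusted p = 0.0477). Of 54 other interferon-induced genes 2 were called higher, against 2.13% of all tested genes. These were Lgals3bp (log2 1.02, SE 0.23, limma adjusted p = 0.0447) and Tor3a (log2 1.17, SE 0.25, limma adjusted p = 0.0355). The MHC class I and antigen processing genes had 0 of 22 called, with a median log2 of 0.55 against 0.19 over all genes. Without knockout male 2 the count called was 0 in each of these 4 tested lists, with limma adjusted p of 0.126 for Ifngr2, 0.152 for Myd88, 0.0922 for Lgals3bp and 0.122 for Tor3a. The median log2 of the 53 other interferon-induced genes still tested was then 0.30, and that of the MHC class I and antigen processing genes 0.14. With all libraries, knockout male 2 was the highest of 12 for 48 of the 54 other interferon-induced genes, against 22.2% of all tested genes. It was the highest for 22 of the 22 MHC class I and antigen processing genes and 16 of the 20 sensing genes. Of the 15 receptor and JAK-STAT genes it was the highest for 4, a share near that of all genes.

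Cell markers also differed in knockout males, where 2.13% of all tested genes were called higher. Of 17 macrophage markers 6 were called higher (Cd5l, Vsig4, Cd68, Csf1r, Emr1 and Timd4), and their summed FPKM was 453 to 1127 in knockout males against 215 to 398 in WT males. The macrophage score was 4.10, 5.26 and 4.35 in knockout males 1, 2 and 3, and knockout male 2 was the highest library for 13 of the 17. Of 14 endothelial markers 6 were called higher, with sums of 181 to 203 against 118 to 137, and knockout male 2 was the highest library for 2 of the 14. Without knockout male 2 the calls were 2 of 16 tested macrophage markers (Cd5l and Emr1) and 1 of 14 endothelial markers (Gpr182). The share of all tested genes called higher was then 0.49%. All 16 and all 14 log2 differences were positive.

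Of 12 stellate cell markers 2 were called higher in knockout males (Dcn and Colec11), against 2.13% of all tested genes. The median log2 of the 12 was 0.46. The count was 0 without knockout male 2, against 0.49%, and the median was 0.24. Of 10 tested lymphocyte markers 0 were called, 7 were positive and 3 negative, and their score was 1.10, 2.17 and 0.66 in knockout males 1, 2 and 3. Knockout male 2 was the highest library for 5 of these 10, and their summed FPKM was 8.71 to 16.8 in WT males and 6.89 to 44.6 in knockout males. Without it 0 of 8 tested were called, with 3 positive and 5 negative. Some defining markers were under the testing minimum. Cd3e, of T cells, read 0.19 to 0.45 in WT males and 0.45, 1.21 and 0.23 in knockout males, and Ncr1, of NK cells, 0 to 0.07 and 0.14, 0.91 and 0.

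Neutrophil markers had 0 of 4 called, all 4 positive, with a median log2 of 0.52. Dendritic cell markers had 0 of 4 called, all 4 positive, with a median of 0.22. These medians were 0.46 and 0.09 without knockout male 2, where 4 and 3 of the 4 were positive. The list of dendritic cells includes Bst2, a member. Their defining genes Mpo and Siglech were under the testing minimum, at 0.20 or less and at 0.13 to 0.31 in all 12 libraries. Cholangiocyte markers had 0 of 4 called. The hepatocyte score was 11.2 to 11.3 in knockout males, and 0 of its 10 genes were called. The part of these cell markers in the knockout values of the members was not tested.

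In females the members lay close to WT values in knockout livers. By limma 0 of 39 members were called in either direction, against 0.00869% of all tested genes each way, and 0 had an unadjusted p under 0.05, against 6.13%. The median log2 difference was 0.02 over the members and 0.00 over all tested genes. Its direction rested on single libraries: it was 0.16, with 31 of 39 members positive, without knockout female 2, and -0.15, with 31 of 39 negative, without knockout female 3. Without WT female 2 it was -0.04. Ratios of mean FPKM ran from 0.767 to 1.5, with a median of 1.04. All 3 knockout females lay above all WT females for 0 members, against 9.22%, and below for 1, Parp14, against 8.42%.

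The 6 smallest p belonged to Oasl1 (log2 0.47, SE 0.34), Oas1b, Oas1g, Parp14, Parp9 and Ifit1 (log2 0.31, SE 0.40), with limma adjusted p from 0.888 to 0.932. Ifit1 read 6.39, 4.49 and 12.77 FPKM in knockout females, against 5.94, 5.53 and 5.45 in WT females. Cxcl10 read 3.52, 2.82 and 5.35, against 5.81, 3.87 and 4.56. Irf9 read 20.03, 14.29 and 21.91, against 20.20, 18.64 and 18.80. In all 3 genes the knockout and WT ranges overlapped. Among the 6 female libraries, knockout female 3 was the highest for 25 members, against 17.1% of all tested genes, and knockout female 2 the lowest for 25, against 32.8%.

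The other members with values in every library also overlapped between the female groups. Rsad2 read 3.21, 2.30 and 5.58 FPKM in knockout females and 2.69, 2.05 and 3.64 in WT females. Cmpk2 read 2.61, 1.98 and 4.18, against 2.32, 1.48 and 2.97, and Usp18 6.04, 5.07 and 8.18, against 5.72, 4.53 and 5.17. Knockout female 3 was the highest female library for all 3 genes.

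Ifit2 read 2.48, 1.66 and 2.75 FPKM in knockout females, against 1.98, 1.99 and 2.52 in WT females. Ifit3 read 13.30, 9.05 and 19.05, against 15.07, 11.45 and 14.14. Parp9 read 19.38, 19.0 and 24.53, against 19.24, 18.12 and 17.20. Knockout female 3 again held the highest value of each. Mx1 read 1.1, 0.75 and 1.25 in knockout females and 1.28, 0.67 and 0.95 in WT females. Oas1a read 2.17, 2.22 and 4.20, against 3.35, 1.74 and 3.31, and Oas2 2.42, 1.31 and 3.89, against 2.08, 2.36 and 2.60. Both OAS genes were highest in knockout female 3, and Mx1 in WT female 1.

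**Figure D5:**
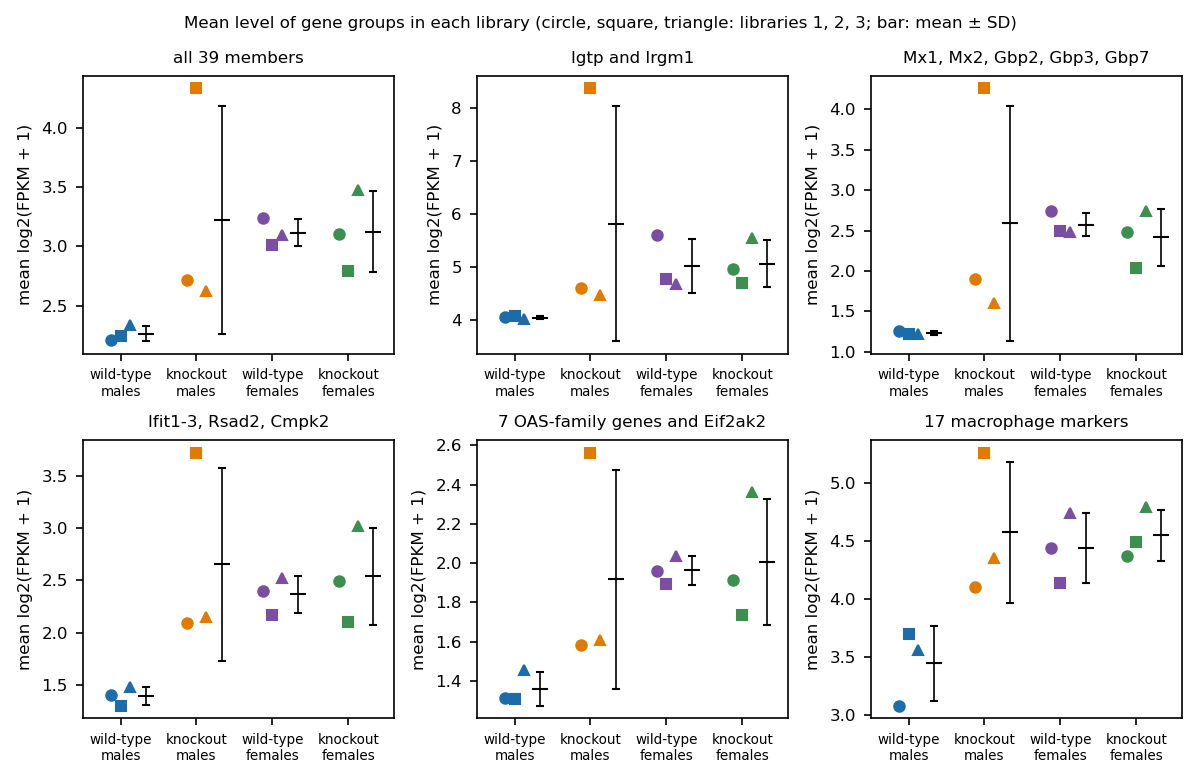
Member score, the mean log2(FPKM + 1) over the 39 members, in each library (points) of the 4 groups with the group mean and SD. WT males lie lowest, at 2.22 to 2.34, knockout male 2 lies highest, at 4.33, and the female groups overlap.

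The knockout effect in males minus that in females was called for 0 of 39 members by limma, against 0.0174% of all tested genes higher and 0.00869% lower, and 4 members had an unadjusted p under 0.05, against 9.03%. Irf9 had the smallest p (log2 0.77, SE 0.28, limma adjusted p = 0.540), followed by Parp14 (log2 1.09, SE 0.45) and Cxcl10 (log2 2.30, SE 0.99), both with a limma adjusted p of 0.544. Ifit3, Ifit2 and Trim25 came next, with log2 differences of 1.33, 0.99 and 0.78. The members' median was 0.78, against 0.20 over all genes, and 0.58 against 0.01 after median-ratio scaling. Without knockout male 2 the members' median was 0.39, against 0.15 over all genes, 6 members had an unadjusted p under 0.05, against 6.23%, and 0 were called. That unadjusted count was 17 without knockout male 1, against 7.79%, and 21 without knockout male 3, against 16.3%, also with 0 called. The comparisons of the sexes and of the genotypes share the WT males, which were the lowest group, so the values stand side by side and are not independent of each other.

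Between knockout males and knockout females 0 of 39 members were called, against 1.67% of all tested genes higher in males and 2.01% lower, and 0 had an unadjusted p under 0.05, against 15.5%. The median log2 difference was 0.03 over the members and -0.01 over all tested genes. This rested on knockout male 2, since without it the members' median was -0.42, against -0.06 over all genes, and 36 of 39 differences were negative. Without that library 15 members, all lower in males, had an unadjusted p under 0.05, against 17% of all tested genes. With all libraries the groups did not separate for any member, against 10.1% of all tested genes with males above and 12.0% with males below. Stat2 had the smallest p (log2 0.40, SE 0.22, limma adjusted p = 0.430), followed by Oas1g, Mx2, Cmpk2, Parp9 and Oas1b. Without knockout male 2, Rtp4, a chaperone of receptor transport, and Usp18 were called lower in males (limma adjusted p = 0.0343 and 0.0467), against 1.92% of all tested genes.

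By role, the median ratio of knockout over WT males was 1.62 for the 4 sensors and 1.87 for the 8 OAS enzymes and PKR, against 9.23 for the 5 Mx and guanylate-binding GTPases. These medians were 1.22, 1.32 and 1.93 without knockout male 2. Zbp1 apart, the sensors Ddx58, Ifih1 and Dhx58, which detect cytosolic viral RNA, had ratios of 1.48 to 1.71 with all libraries and 1.11 to 1.26 without knockout male 2. The ISG15 group comprises Isg15, a ubiquitin-like modifier, Usp18 and the ubiquitin ligase Trim25. All 3 had knockout males above WT males without overlap, against 21.2% of all tested genes. Ratios of means were 2.76 for Isg15 and 1.58 for Trim25, and without knockout male 2 they were 1.34 and 1.68. Trim25 was highest in knockout male 1, at 21.16 FPKM, against 14.40 and 14.09 in knockout males 2 and 3.

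Among the remaining members, Ifi44 had a ratio of means of 5.87, Rtp4 2.52, Xaf1, a binding partner of the apoptosis inhibitor XIAP, 2.24 and Parp14 2.21. Without knockout male 2 these were 1.93, 1.18, 1.12 and 1.42. Bst2, or tetherin, which holds budding virions at the cell surface, was the most abundant member in WT males, at 103 ± 36.6 FPKM in WT males and 122 ± 77.0 in knockout males (SD, n = 3). Its 3 WT males ran from 74.23 to 144.50 and overlapped the knockout range of 65.55 to 209.44.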

How the data were processed

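Poly(A) RNA of 12 liver libraries was sequenced, per the labels' protocols. The authors deposited FPKM for 18560 genes, per the file headers; TopHat2 and mouse build mm10 are named in the submitters' processing notes, while the sources used here name no quantifier, annotation or read total. Per-sample columns left unused numbered 0.

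A minimum of 1 FPKM in 3 or more libraries was set for testing. The deposited values were compared on the log2(FPKM + 1) scale by limma (3.58.1, under R 4.3.3), with 1 mean per group over all 12 libraries, a trend on the mean and Benjamini-Hochberg adjustment over all 11514 tested genes, two-sided, called at an adjusted p under 0.05. Log2 differences on this scale understate changes of low genes; ratios are of mean FPKM. The fit was tested on simulated data. No pair of libraries shared more than 0.338% of identical values at 5 FPKM or above, so each counted as a separate sample.

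The members and lists were chosen with earlier results of these data known. The 6 members with the smallest p were named in each comparison. Full statistics for all 6 were given in the WT sex and male knockout comparisons only. Values in every library covered the 10 smallest p in males and any called member. Other members named with a ratio or a level, and the genes ranked in 1 library, were chosen after their values were seen. Tables and figures were made in Python 3.11.15 with pandas 2.3.3. Promoters came from RefSeq, build GRCm38.p6.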

Additional observations from a re-analysis of the deposited data

How the results depend on the processing

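The alternatives comprised median-ratio scaling, a smaller pseudocount (0.1), testing without the minimum level, a fit of only the groups compared, a replicate block and leaving out each library. A fit of the male groups without knockout male 2 was added after seeing the data. It called 0 of 34 members, against 3 of all 10584 genes it tested. The number of members called lower in WT males than in WT females was 4 with all libraries, against 1273 of all 11514 tested genes. It was 1 without the filter, against 1206 of 18560, and 0 with median-ratio scaling, against 509 of 11448. With only the 6 WT libraries it was 22, against 1193 of 11089. When 1 library was left out it was 0 to 25, while 507 to 1772 of all genes were called lower. In the male knockout comparison the count was 0 to 5 when 1 library was left out, while 58 to 578 of all genes were called. It was 0 under every other alternative, while 3 to 378 of all genes were called. In the comparison of knockout males with knockout females it was 0 to 2 when 1 library was left out, while 202 to 637 of all genes were called. In the female knockout comparison and in the difference between the knockout effects it was 0 under every alternative run. Over all genes 0 to 11 were called in the former and 1 to 19 in the latter. The cause of these shifts was not tested, except that a fit of fewer groups takes its spread from fewer libraries.

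Same-numbered libraries had correlations of deviations from -0.32 to 0.56, and libraries of different number from -0.62 to 0.42. With 3 libraries per group and overlapping ranges, these values cannot decide whether the replicate numbers pair the samples. With the replicate block, 1 member (Irf9) was called lower in WT males, against 945 of all 11514 tested genes. In the male knockout comparison 0 members were called, against 132 genes.

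Over the 30 differences of single members given with full statistics, 3 reversed under an alternative; sign changes of other members are not in this count. Leaving out 1 library gave Cmpk2 a log2 difference between knockout males and knockout females of -0.019 (without knockout male 2) to 0.86, and Parp9 -0.015 (without knockout male 2) to 0.47. For Ifit1 in females, knockout minus WT, the range was -0.059 (without knockout female 3) to 0.60. None of the 3 was called before or after. Of the other alternatives for these 30 differences, 456 kept direction and side of the threshold, 40 lost the threshold and 10 gained it.

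Depth is known only as an estimate, so no counting intervals were given, and members under 1 FPKM, such as Mx1 and Oas1a in WT males, are the least precise.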

Other observations

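Across all genes with at least 10 FPKM in knockout male 2 (4711), those farthest above the highest other library included further interferon-induced genes. Ubd, encoding the ubiquitin-like modifier FAT10, stood 18.4 times above the highest other library, at 117 against 6.36 FPKM. Tgtp1, an interferon-induced GTPase, stood 15.8 times above, and Cxcl9, a second chemokine for CXCR3, 12.5 times. Gbp10 and Gbp6 stood 10.9 and 10.6 times above. Of the 40 genes farthest above, 7 were among the 39 members and 11 others were on the pathway or marker lists. Among those on none of these lists were Gstm3, at 424 FPKM against 55.5, and Gsta1, at 113 against 18.9. H2-Ab1, an MHC class II gene on no list, stood at 268 against 58.8. These genes were ranked by the values of 1 library, so the order is a description with no test.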
